A study of Mus musculus with 2 samples.

Results

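10 genes of matrix proteolysis were followed in cultured mouse ovary: 6 matrix metalloproteinases (Mmp2, Mmp3, Mmp9, Mmp11, Mmp14 and Mmp19), the ADAMTS protease Adamts1, and the tissue inhibitors Timp1, Timp2 and Timp3. They were taken by name, as every probe whose RefSeq transcript belongs to 1 of these 10 genes, out of 20658 genes that could be named on the array. This gave 12 probes at 21 spots. Ovaries of 2-week-old mice were divided lengthwise into symmetrical parts, cultured for 3 days and their RNA hybridised to single-colour oligonucleotide arrays, 1 array for TKR agonists and 1 for TKR antagonists (TKR, tachykinin receptor). The agonists were ligands that activate TACR1 ([Sar9, Met(O2)11]-SP), TACR2 (GR-64349) and TACR3 (the substance P analogue senktide), and the antagonists were a TACR1 blocker, GR-94800 against TACR2 and SB218795 against TACR3, each ligand at 1 μM. The sources used here do not say which mouse strain or how many ovaries lay behind each RNA. No untreated ovary was analysed here, so a higher level with the agonists cannot be told apart from a lower level with the antagonists. Since each group had 1 array, the spread from ovary to ovary is unknown and nothing was tested statistically.

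Matrix metalloproteinases (MMPs) are zinc-dependent enzymes that are made as inactive precursors and, once activated, cut collagens, gelatin and other proteins around cells. ADAMTS1 is a related secreted protease that cleaves the proteoglycan versican, and it is known in the ovary for its part in ovulation. TIMPs bind the active enzymes and block them, and TIMP3 is itself held in the matrix. In the growing follicle these enzymes and inhibitors are known for the remodelling of the basement membrane and of the theca and stroma around it.

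Among the 8 genes of the set that were measured on both arrays, Adamts1 and Mmp19 differed most, both higher with the agonists. Adamts1 was 2.70-fold and Mmp19 2.52-fold higher, Timp1 was 1.56-fold higher, and Mmp2, Mmp14, Mmp11, Timp2 and Timp3 lay between 1.05-fold and 1.19-fold. Mmp3 was above background only with the agonists, and Mmp9 was above background on neither array. Of the 8 genes, 2 were at least 2-fold higher, against 4.01% of the 15258 genes measured on both arrays, and 0 were at least 2-fold lower, against 0.577%. The genes were chosen with earlier results of these data known, so this comparison describes the set and does not test it. The number higher was 1, Adamts1 alone, with the normexp background correction and when genes with a mean signal below the 75th percentile were left out. The 8 had a median log2 ratio of 0.24 and all lay above 0, where all genes had a median of -0.10 and 37.7% lay above 0.

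**Figure D1:**
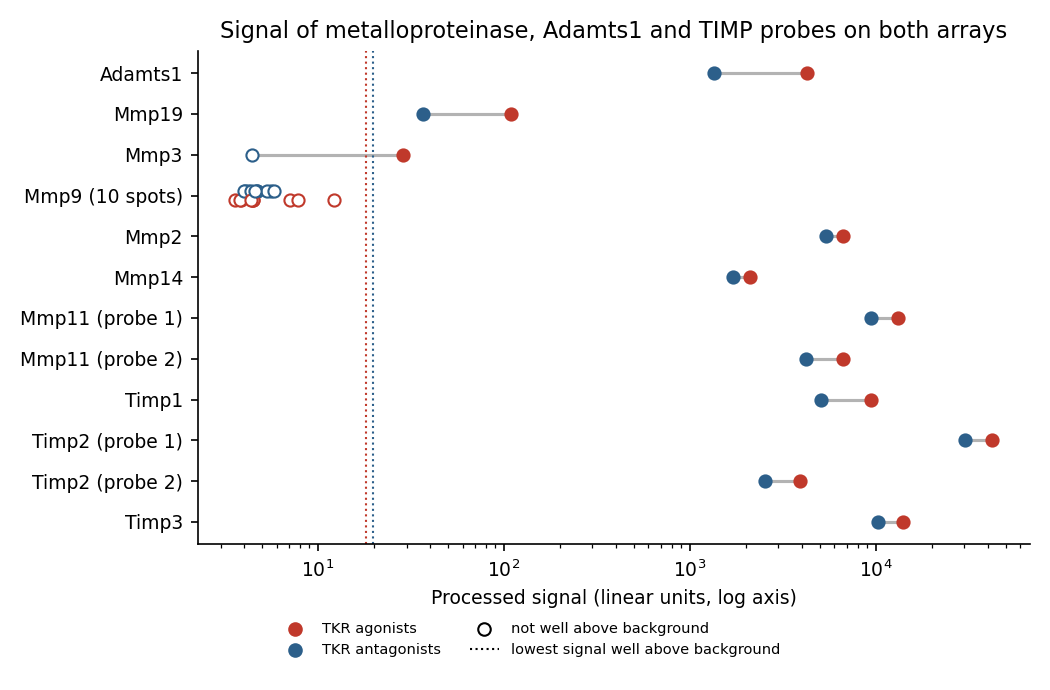
Processed signal (horizontal, linear units on a log axis) of each probe on the agonist array (red) and the antagonist array (blue), with 1 point for each spot. Open points were not well above background, and dotted lines mark the lowest signal well above background, 18.1 and 19.9 signal units. In every pair of filled points the red point lies to the right.

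These values are background-corrected spot intensities, which the authors left unscaled. Here each array was divided by its own 75th percentile, which was 672 signal units (agonists) and 569 (antagonists), and log2 was taken. A log2 ratio compares agonists with antagonists and is positive where the agonist array was higher, so 1 stands for a 2-fold difference. The image analysis software marks a spot as well above background by its own criterion, which 65.4% of the 59305 non-control spots met with the agonists and 61.6% with the antagonists, and it gives each signal an error. The ± values below combine these errors over the spots of both arrays on the log2 scale, and cover the measurement of a spot and not the spread between ovaries; for bright spots they come to 0.20. The arrays also carry probes printed at 10 spots, and for 284 of them that were well above background throughout, the median SD of the log2 ratio between spots was 0.07. No spot of the set was saturated or marked as an outlier.

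Adamts1 was represented by 1 spot of 1 probe for the transcript NM_009621. Its spot read 4291 signal units (agonists) against 1346 (antagonists), both far above the background limit. The log2 ratio was 1.43 ± 0.20, which ranked 281 from the highest of the 15258 genes. Among the 73 10-spot probes within 2-fold of this brightness, the SD of the log2 ratio between spots reached at most 0.10. The difference was thus many times the disagreement in log2 ratio between spots of such a probe. Under the 12 alternative ways of processing that give a ratio, it lay between 1.38 and 1.71. Some of these cannot change a value read from 1 spot of 1 probe.

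Mmp19, a secreted MMP that acts on components of the basement membrane, was read by 1 spot for NM_021412 and was much closer to background. Its spot read 109 signal units (agonists) against 36.8 (antagonists), where the lowest signals well above background were 18.1 and 19.9. The log2 ratio was 1.33 ± 0.26, rank 338. It was within 0.10 ± 0.33 of the Adamts1 ratio, so the order of this pair was not settled by the spots. The 10-spot probes of like brightness had a median SD of 0.23 between spots and at most 0.49 (46 probes). With the normexp background correction, which adds an offset of 50 signal units to every spot, the ratio of Mmp19 was 0.55, below 2-fold, while that of Adamts1 stayed at 1.45.

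**Figure D2:**
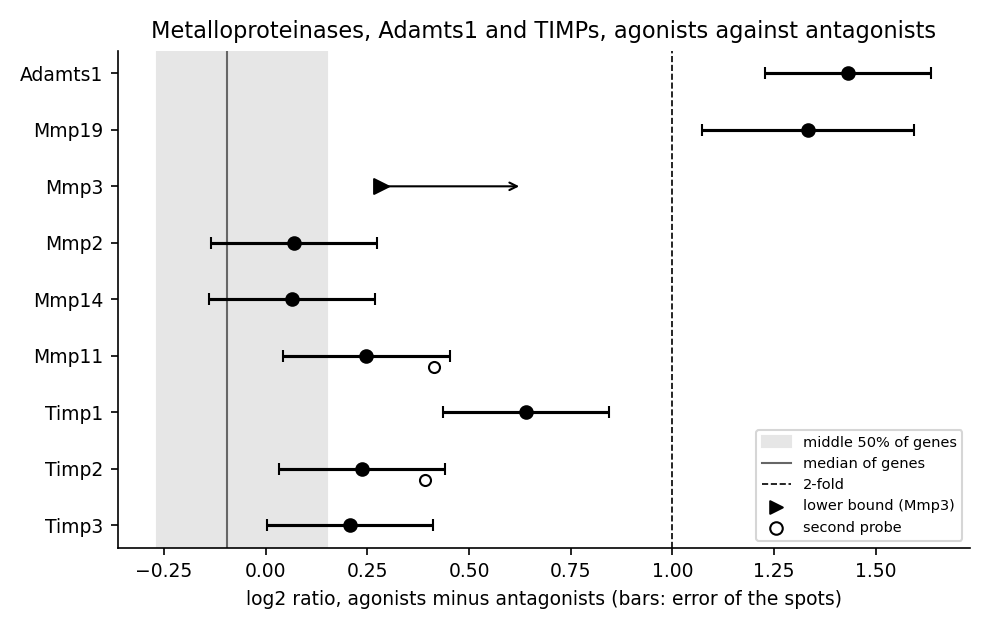
log2 ratio of agonists to antagonists (horizontal) for each gene, with bars for the combined error of the spots. Open circles are second probes of a gene, the arrow starts at the lower bound of Mmp3, the grey band holds the middle 50% of all genes and the grey line their median. Adamts1 and Mmp19 lie beyond the dashed 2-fold line, Timp1 lies between that line and the band, and the bars of the other genes reach into the band.

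The gelatinases MMP2 and MMP9 digest denatured collagen and the type IV collagen of basement membranes, and their genes stood at opposite ends of the scale of detection. Mmp2 (NM_008610) had signals of 6667 (agonists) and 5377 (antagonists), and thus a log2 ratio of 0.07 ± 0.20. Mmp9 (NM_013599) was read at 10 spots, and 0 of 10 were well above background on either array. On the agonist array its signals ran from 3.60 to 12.3, averaging 5.62 ± 2.74, and on the antagonist array from 3.99 to 5.85, averaging 4.73 ± 0.650 (SD, n = 10 spots each). The spots of both arrays overlapped, and 5 spots with the agonists and 3 with the antagonists were positive and significant against local background by the criterion of the software. No fold is given for Mmp9, whose level was not detectable at this sensitivity.

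MMP14 is anchored in the cell membrane and, together with TIMP2, is known to activate the precursor of MMP2 at the cell surface. Mmp14 (NM_008608) had signals of 2106 and 1704 with the agonists and antagonists, a log2 ratio of 0.06 ± 0.20. Mmp2 and Mmp14 differed in log2 ratio by 0.00 ± 0.29, and both errors include 0. Timp2, the remaining gene of this activation complex, stood 0.17 ± 0.29 above Mmp2 at its brighter probe, within the error of the spots. At its second probe it stood 0.32 ± 0.29 above Mmp2 and 0.33 ± 0.29 above Mmp14, just beyond that error.

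The stromelysins gave 1 well-measured and 1 barely measured gene. MMP3 cuts a broad range of matrix proteins and can activate other MMPs, and MMP11 is known as a stromal enzyme that is activated inside the cell. Mmp11 had 2 probes for NM_008606, with signals of 13209 and 9408 at the brighter probe and 6678 and 4237 at the other (agonists first). Their log2 ratios were 0.25 ± 0.20 and 0.41 ± 0.20, in the same direction and within their errors of each other. Mmp3 (NM_010809) had a signal of 28.6 with the agonists, well above background, and 4.44 with the antagonists, not well above background and not significant against local background. The lowest signal well above background on the antagonist array therefore stands in for the dim value, and on that basis the level of Mmp3 with the agonists was at least 1.22-fold higher. With normexp, whose offset is larger than the signal of Mmp3, this lower bound was 0.01 on the log2 scale.

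**Figure D3:**
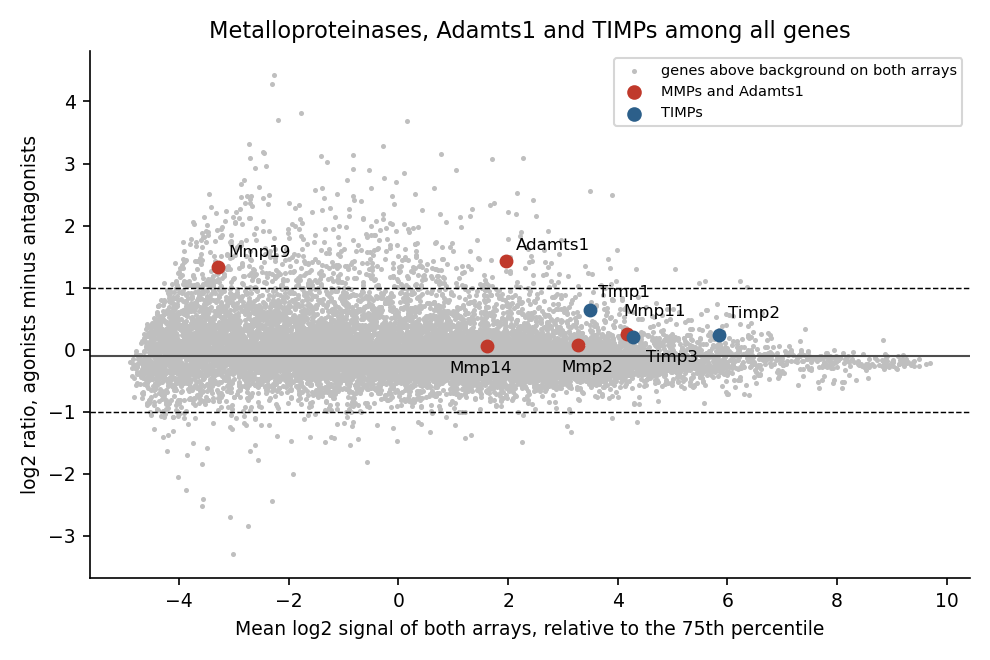
log2 ratio (vertical) against the mean log2 signal of both arrays relative to the 75th percentile (horizontal) for the 15258 genes well above background on both arrays (grey), with MMPs and Adamts1 in red and TIMPs in blue. Dashed lines mark 2-fold and the solid line the median of all genes. Adamts1 lies above 2-fold at a brightness where few genes do, and Mmp19 lies in the dim region where ratios spread widely.

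The inhibitor genes were bright and higher with the agonists by less than 2-fold. Timp1 (NM_001044384) had signals of 9399 (agonists) and 5104 (antagonists), for a log2 ratio of 0.64 ± 0.20, rank 1255. Timp2 had 2 probes for NM_011594, at 42230 and 30326 for the brighter and 3937 and 2538 for the other, with log2 ratios of 0.24 ± 0.20 and 0.39 ± 0.20. Timp3 (NM_011595) had signals of 14102 and 10336, a log2 ratio of 0.21 ± 0.20. Timp1 stood 0.40 ± 0.29 above the brighter probe of Timp2, 0.25 ± 0.29 above the other and 0.43 ± 0.29 above Timp3, while Timp2 and Timp3 differed by 0.03 ± 0.29. Adamts1 stood 1.22 ± 0.29 above Timp3, the inhibitor known to block several ADAMTS proteases, and 0.79 ± 0.29 above Timp1. Such differences between genes are the same under every scaling by 1 constant per array.

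The order of the log2 ratios, from the highest, was Adamts1, Mmp19, Timp1, Mmp11, Timp2, Timp3, Mmp2 and Mmp14. From Mmp11 down to Mmp14, neighbours differed by less than the error of their spots. Timp1 stood above Mmp11 by 0.39 ± 0.29 at the brighter Mmp11 probe and by 0.22 ± 0.29, within the error, at the other, and it stood below Mmp19 by 0.69 ± 0.33. In the 12 alternatives that give ratios, each of the 8 genes stayed above 0, though some could not change a ratio read from 1 spot. These were the median over spots, kept outlier spots, NM accessions alone and, for genes with 1 probe, the mean over probes. The lowest value was 0.01, for Mmp14 and for Mmp2 with scaling on the median. The median of all genes moved from -0.15 to 0.18 over these scalings, so a small positive ratio depends on where the arrays are centred.

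**Figure D4:**
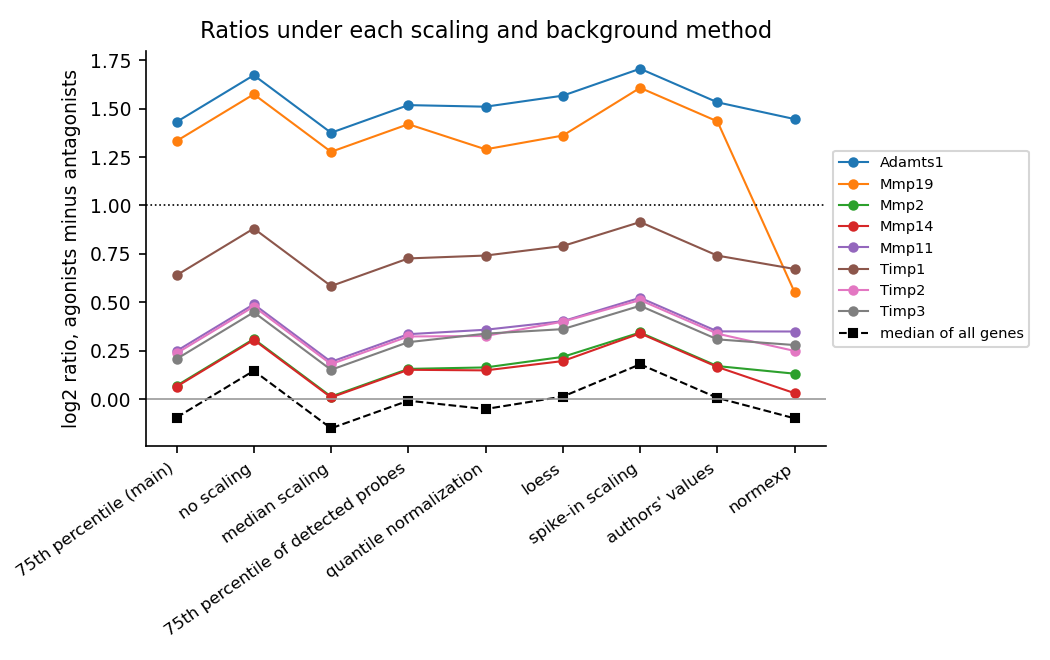
log2 ratio (vertical) of the 8 genes measured on both arrays under each scaling or background method (horizontal), with the median of all genes as black squares and the 2-fold level as a dotted line. The lines run nearly in parallel except at normexp, where Mmp19 drops from 1.33 to 0.55.

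Promoter sequences were available for 7 of the 10 genes, from RefSeq on GRCm38.p6, each covering 250 bases before to 50 after the annotated start. AP-1, the factor family of Fos and Jun, is known to drive several MMP and TIMP promoters, and its motif TGANTCA (both strands) was present in 1 of the 7, that of Mmp3, and in 7.81% of the 32851 promoters of the table. TATAAA (both strands) was found in 2, those of Mmp3 and Adamts1, and in 13.6% of all promoters, and the GC box GGGCGG (both strands) in the other 6, all but Mmp3, and in 35.7% of all. Neither the STAT motif TTCNNNGAA nor the cAMP response element TGACGTCA (both strands) occurred in any of the 7; 8.30% and 1.79% of all promoters hold them. The promoters of Adamts1, which had the highest ratio, and of Mmp3, which was detected with the agonists only, are shown to contrast a GC-rich and an AT-rich start. Capitals mark TGANTCA and TATAAA. The region of Adamts1 is chr16:85803064-85803363 on the minus strand, and that of Mmp3 is chr9:7445572-7445871 on the plus strand.
Adamts1: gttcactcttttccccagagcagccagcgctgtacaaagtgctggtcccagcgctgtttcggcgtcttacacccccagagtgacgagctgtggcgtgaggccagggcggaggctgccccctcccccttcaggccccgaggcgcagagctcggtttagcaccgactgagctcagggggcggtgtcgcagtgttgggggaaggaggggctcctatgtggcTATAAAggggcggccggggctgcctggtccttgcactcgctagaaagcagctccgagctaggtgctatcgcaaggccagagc
Mmp3: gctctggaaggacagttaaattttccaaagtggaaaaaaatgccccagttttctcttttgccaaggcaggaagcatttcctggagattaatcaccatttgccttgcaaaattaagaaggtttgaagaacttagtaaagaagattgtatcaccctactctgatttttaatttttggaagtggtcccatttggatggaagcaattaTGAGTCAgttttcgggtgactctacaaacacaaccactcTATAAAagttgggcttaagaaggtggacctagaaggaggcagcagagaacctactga
In Adamts1 TATAAA begins at position -32 from the annotated start, and GC boxes begin at -147, -76 and -25. In Mmp3 TGAGTCA begins at -46 and TATAAA at -7. A match is a run of letters and not evidence that a factor bound there in these ovaries.

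Of 17 other MMP genes listed, 16 had a probe, 6 were well above background on both arrays, 2 on the agonist array only and 8 on neither; their median log2 ratio was 0.21, and -0.05 with normexp. None of the 6 was 2-fold apart (2 were with spike-in scaling). The brightest was Mmp23, at 1947 and 911 signal units, with a log2 ratio of 0.85. Mmp7 (matrilysin, an epithelial MMP), at 54.4 with the agonists and not well above background with the antagonists, was at least 2.31-fold higher. Mmp8 was detected on the agonist array only, with a bound of 1.11-fold. Neither bound was recomputed with normexp.

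Of 18 other ADAMTS genes with a probe, 13 were measured on both arrays. Of these, 8 were higher and 5 lower with the agonists, where 37.7% of all genes were higher. Their median log2 ratio was 0.04, which was -0.01 with scaling on the median. At least 2-fold higher were 2 of the 13, against 4.01% of all genes, and 0 were at least 2-fold lower, against 0.577%. The higher were Adamts4, at 1251 and 259 signal units (log2 ratio 2.03), and Adamts15, at 169 and 61.5 (1.22, and 0.68 with normexp). Both cleave proteoglycans such as aggrecan and versican. Of the 5 lower genes, Adamts14 was the brightest, at 1158 and 1623 (-0.73 ± 0.20). Adamts18 (-0.95), Adamts16 (-0.61) and Adamts17 (-0.26) were also lower. Adamts5, a well-known aggrecanase, was dim on both arrays, at 28.2 and 34.2 signal units with a log2 ratio of -0.52 ± 0.33, and Adamts8 had signals of 185 and 142 and a ratio of 0.14. Adamts9, also a versican-cleaving enzyme, had signals of 1218 and 998 and a ratio of 0.04. Adamts2, which trims procollagen, was the brightest, at 14983 and 11661, with a ratio of 0.12. The list of further inhibitors and their relatives was higher in 4 of 4 measured cases, by between 0.34 and 0.81 on the log2 scale: Reck (a membrane-anchored MMP inhibitor), Pcolce (which enhances procollagen processing), Pzp (a macroglobulin that traps proteases) and Timp4. With normexp the dim genes Timp4 and Pzp went from 0.81 to 0.20 and from 0.73 to 0.08, and the median of the list from 0.68 to 0.23.

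**Figure D5:**
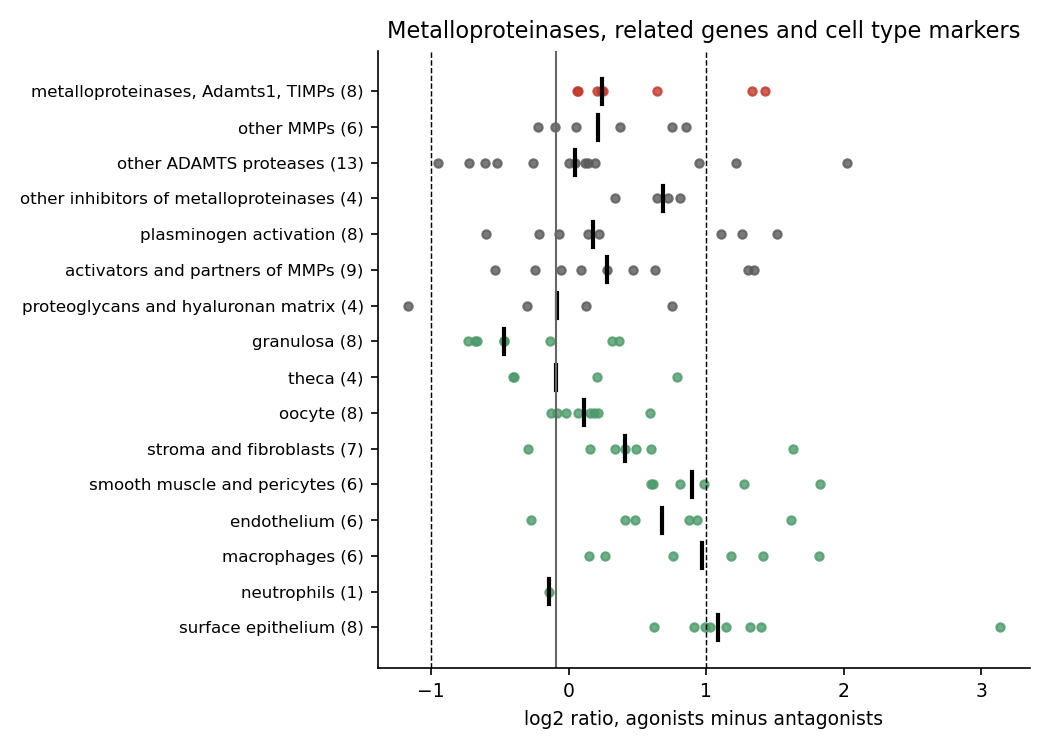
log2 ratio (horizontal) of each gene measured on both arrays, by list, with the number of such genes in brackets. Red points are the metalloproteinases, Adamts1 and TIMPs, grey points related genes and green points cell type markers; black bars are medians, dashed lines 2-fold and the thin line the median of all genes. All points lie above 0 for the metalloproteinases, Adamts1 and TIMPs, the other inhibitors, smooth muscle, macrophages and surface epithelium.

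The RNA came from whole pieces of ovary, in which fewer cells of a type and less RNA per cell cannot be told apart. Markers that define the tissue were present on both arrays: all 8 oocyte genes (Gdf9, Bmp15, Zp1, Zp2, Zp3, Figla, Nobox and Oosp1) and all 8 granulosa genes were well above background, while Lhcgr of the theca was on neither array. Most markers of cells outside the follicle were higher on the agonist array, as were Adamts1 and Mmp19. Lum of the stroma (-0.30) and Kdr of the endothelium (-0.27, other probe 0.38) were lower. Csf3r of the neutrophil list had -0.14, while S100a9 and Mpo of that list were above background on the agonist array only. Of all genes measured on both arrays, 37.7% were higher with the agonists. Surface epithelium had 8 of 8 genes higher, with a median log2 ratio of 1.09 and a summed signal of 39.0 with the agonists against 17.7 with the antagonists, in units of the 75th percentile. Macrophages had 6 of 6 higher (median 0.97, summed 12.8 against 9.70), smooth muscle and pericytes 6 of 6 (0.90, 39.0 against 23.5), endothelium 5 of 6 (0.68, 61.5 against 54.5) and stroma 6 of 7 (0.41, 405 against 338). In these lists Des, Tek and Fcgr1 were above background on the agonist array only, and no probe was matched for Cd68.

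Granulosa markers had 2 of 8 genes higher, where 37.7% of all genes were higher. Their median log2 ratio was -0.47, with a summed signal of 100.1 with the agonists against 130.6 with the antagonists. The theca list had 2 of 4 higher, with a median of -0.10 that was 0.18 with spike-in scaling (summed 85.1 against 84.1). The oocyte list had 5 of 8 higher, with a median of 0.11 (summed 244 against 251). Other probes of a marker differed in sign for Foxl2 (0.32, other probe -0.37), Star (-0.40, other 0.01) and Kdr (-0.27, other 0.38). Csf1r had 0.15, and its other probes ran from -0.09 to 0.04. Other probes of Nr5a2, Adgre1 and Oosp1 kept the sign. Of the neutrophil markers, S100a8 and Cxcr2 were on neither array and S100a9 and Mpo on the agonist array only, at 31.9 and 29.5 signal units; Csf3r, at 78901 and 73526, was alone in being bright, and Ly6g had no matched probe. What part these cell types have in the differences of Adamts1, Mmp19 and Timp1 was not tested.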

How the data were processed

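Total RNA of 2 cultured ovary samples was labelled with Cy3 and hybridised to a SurePrint G3 Mouse GE array, 1 array per group. Per the file headers, the authors deposited spot intensity values from Agilent Feature Extraction 10.10.1.1, background-corrected, on a linear scale and not scaled between arrays, with other columns that mark saturation, outliers and signal well above background. Their summary table of intensity equals the processed signal times 1.99 for the agonists and 2.19 for the antagonists (largest relative deviation 9.94e-10 over 59305 spots) and was used as an alternative.

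Control spots and spots marked as outliers were left out, log2 signals were reduced by the 75th percentile of the array, and spots of a probe were averaged. A probe counted as detected on an array when more than 50% of its spots were well above background. Of 55674 probes, 27230 were named through RefSeq transcripts of GRCm38.p6, used for names and promoters only because the array was designed on another build; 453 of 26531 NM accessions found no symbol, and the files hold no gene name column. The brightest probe stood for a gene, and the mean over probes was an alternative. Where a probe was detected on a single array, a minimum fold was computed by setting the other array to its detection limit, the lowest signal well above background, or to the measured value if that was larger. In the latter case the fold is the measured ratio and not a minimum.

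The genes followed, the related lists and the cell type markers were chosen with earlier results of these data known. Of the related lists, genes are named where 2-fold apart or with a bound of at least 2-fold; others named in the text were chosen after their values were seen. One result of the plasminogen activation list is not reported here. The number of arrays limits the precision. The alternatives were other scalings, background correction, summaries of spots and probes, filters and a 1.5-fold threshold. The calculation was tested on simulated data. Python 3.11.15, pandas 2.3.3, statsmodels 0.14.6 (loess, span 0.3), R 4.3.3 and limma 3.58.1 (normexp, offset 50, on the median spot signal) were used.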

Additional observations from a re-analysis of the deposited data

How the results depend on the processing

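No paired analysis was possible because each group has 1 array. Of 108 values of single genes of the set under the alternatives, 90 moved by less than the error of their spots, 18 by more, and 0 fell below 0. Part of the 90 was fixed in advance, because each detected probe of the set had 1 unmarked spot and an NM accession. For these the median over spots, kept outlier spots and NM accessions alone had to return the main value. So did the mean over probes, except for Mmp11 and Timp2. Of the 18, 2 came with normexp and the others with unscaled or spike-in-scaled signals, which shift every log2 ratio by 1 constant. With normexp Mmp19 was at 0.55 and the bound of Mmp3 at 0.01. The median over the 9 genes detected on at least 1 array, with Mmp3 at its bound, was 0.25; it was 0.49 without scaling, and scaling on the spike-ins gave 0.52. The number of genes of the set at least 2-fold higher was 2; it was 1 with normexp and 1 when genes with a mean signal below the 75th percentile were left out, both without Mmp19. With no filter on dim probes it was 3, adding Mmp3, and with a 1.5-fold threshold 3, adding Timp1. The number lower was 0 in every setting run. Over all genes, 612 were at least 2-fold higher and 88 lower. Unscaled signals gave 992 and 39, the spike-ins 1052 and 35, normexp 323 and 33, all probes regardless of background 1349 and 554, bright genes alone 176 and 19 and a 1.5-fold threshold 1413 and 653, and 58 were lower with the authors' values. Signal over background limits Mmp3, Mmp9 and Mmp19.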

Other observations

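Among genes of plasminogen activation, whose product plasmin activates several MMP precursors, Plau (urokinase) was more than 2-fold higher with the agonists, at 1224 and 432 signal units with a log2 ratio of 1.26. Its receptor Plaur, at 987 and 387, had a ratio of 1.11. Both stayed above 1 with normexp, the lower being Plaur at 1.02. Plat (tissue plasminogen activator), at 2437 and 1773, had a ratio of 0.22, and Serpine2, an inhibitor of these activators, at 2004 and 2573, had -0.60. Serpinf2 (the plasmin inhibitor alpha-2-antiplasmin) had 172 signal units with the agonists and 21.5, not well above background, with the antagonists. As 21.5 exceeded the lowest signal well above background (19.9), its 6.80-fold difference was the measured ratio and not a minimum. On the log2 scale it was 2.77 ± 0.37, and it was not recomputed with normexp. Plasminogen itself (Plg) was above background on neither array.

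Of 9 genes for activators and partners of MMPs, all measured on both arrays, 2 were at least 2-fold higher, against 4.01% of all genes. They were Lcn2, whose product binds MMP9, at 503 and 167 (1.35), and the tight junction gene Cldn11, at 1700 and 583 (1.30). Any link of Cldn11 to an MMP was not tested. In this list 6 genes were higher and 3 lower, namely Pcsk6 (-0.53), Bsg (-0.24) and Cd44 (-0.05, another probe 0.79). Furin, the convertase that activates MMP11 and MMP14, had signals of 5116 and 4066 and a ratio of 0.09. Among proteoglycans and genes of the hyaluronan matrix, Has2 (hyaluronan synthase) was above background on the agonist array only, at 109 against 4.41 signal units, and at least 4.65-fold higher. This bound was not recomputed with normexp. The versican gene Vcan, the substrate of ADAMTS1, had 2408 and 1211 (0.75; another probe gave 0.46), and Bcan (brevican) 575 and 1093 (-1.17; another probe gave -0.32).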
